A study of Mus musculus with 9 samples.

Results

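Intraflagellar transport and BBSome genes were followed in cells sorted from the mouse tracheal epithelium. The genes were chosen by name: 35 listed subunits of the transport particles, their motors and the BBSome, of which 34 were measured here, out of 18193 genes in all. Arl6, the small GTPase that brings the BBSome to membranes, was not analysed here. Each gene was represented by 1 probe set, the one with the highest mean over the 9 arrays.

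The cells came from mice hemizygous for a KRT5-GFP transgene, in which the keratin 5 promoter drives green fluorescent protein (GFP), so the reporter marks cells by that promoter's activity and not by lineage. Suspensions of tracheal epithelial cells were sorted on GFP and on binding of the GSI-A3B isolectin into 3 gates, with 3 biological replicates each, and the labels name no other treatment. The columnar gate had neither mark, the lectin-only gate bound the lectin without GFP, and the GFP+ gate bound the lectin and carried GFP. The labels call the first columnar epithelium and both others basal cells; the sources used here do not state age, sex or whether animals were pooled. Every gate came from the same transgenic strain, and none was a non-transgenic control.

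Cilia are built and maintained by intraflagellar transport, in which trains of protein particles carry cargo along the microtubules of the axoneme. Kinesin-2 motors drive trains of the IFT-B complex towards the tip, and dynein-2 with the IFT-A complex returns them to the base. The BBSome is a coat-like complex that rides on these trains and carries membrane proteins, and loss of its subunits causes Bardet-Biedl syndrome. In the airway the multiciliated cells carry many motile cilia, while basal cells, the stem cells of this epithelium, can carry a single primary cilium that uses the same transport machinery.

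RFX transcription factors bind an X-box and are known to control transport genes, so the promoters were searched for it. RefSeq windows (build GRCm38.p6) of 250 bases before the start were given for 31 of the 35 listed genes and for 17492 protein-coding genes. The letters searched on both strands were GTTNCCNGGNAAC, GTTNCCNNGGNAAC and GTTNCCNNNGGNAAC, where N is any base. An X-box of any of these forms lay in 2 of the 31 genes (6.45%) and in 125 of all 17492 (0.715%). The 2 genes were Ift57 and Bbs7. The following stretches of 100 bases are shown because Kif3b and Ift22 had the largest differences between gates and Ift57 and Bbs7 held the X-box, a choice made after the values were seen. Capitals mark the X-box and the shorter letters GTTGCC, which can form its left arm or stand apart from it, as the first match in Ift57 does.
Kif3b, chr2:153291295-153291394, + strand: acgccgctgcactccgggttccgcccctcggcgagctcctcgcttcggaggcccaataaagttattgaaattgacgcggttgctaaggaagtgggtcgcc
Ift22, chr5:136908050-136908149, + strand: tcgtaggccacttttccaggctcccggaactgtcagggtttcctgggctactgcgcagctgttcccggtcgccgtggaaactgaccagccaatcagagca
Ift57, chr16:49699194-49699293, + strand: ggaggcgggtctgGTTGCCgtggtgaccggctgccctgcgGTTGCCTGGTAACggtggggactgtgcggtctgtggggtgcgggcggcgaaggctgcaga
Bbs7, chr3:36613493-36613592, - strand: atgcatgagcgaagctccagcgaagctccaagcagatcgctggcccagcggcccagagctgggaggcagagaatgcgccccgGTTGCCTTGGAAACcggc

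Each stretch lies before the annotated start of its gene, and that of Kif3b also overlaps the annotated non-coding gene Gm39961. The match in Ift57 ran from base -60 to -48 and that in Bbs7 from -121 to -108, counted from the start that set the window. For Kif3b and Bbs7 the annotated gene begins before that start, so their stretches end at base -22 and -104 from it. The letters GTTGCC, within an X-box or apart from it, lay in 7 of the 31 genes (22.6%), Ift57 and Bbs7 among them. They lay in 12% of all protein-coding genes. With the 50 bases after the start included, a window added after the data were seen, they lay in 13 of the 31 (41.9%) and in 14.3% of all. Of 22 motile axoneme genes with a window, 7 (31.8%) held GTTGCC, or 9 (40.9%) in the longer window, and 0 held an X-box. The forkhead letters TGTTTAC, searched for the family of FOXJ1, lay in 0 of the 31 and in 3.04% of all. These matches describe letters in a window and were not tests of binding.

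The arrays and the labels were checked first. Replicate 3 of the lectin-only gate had a median log2 signal of 5.44, above the range of 4.91 to 5.16 over the other 8 arrays. It also had more probe sets above the background level of 3.56, 73.0% against 65.3% to 66.3%. The mean level of 6 basal cell markers lay between 7.13 and 8.12 on columnar arrays, between 11.1 and 11.3 on lectin-only arrays and at 12.1 on all GFP+ arrays. Krt5 was higher by 5.48 ± 0.45 (SE) in the GFP+ gate and by 4.93 ± 0.45 in the lectin-only gate than in the columnar gate, and Trp63 by 5.44 ± 0.20 and 4.32 ± 0.20. The mean of 8 multiciliated cell markers ran from 8.10 to 8.79 on columnar, from 5.80 to 6.70 on lectin-only and from 4.29 to 5.29 on GFP+ arrays. The mean of 8 leukocyte markers ran from 4.95 to 5.93, from 10.1 to 11.0 and from 6.58 to 8.11. All 8 leukocyte markers were called higher in lectin-only against columnar, where 8.85% of all genes were called in either direction. The part of leukocytes in the lectin-only values below was not tested.

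Of the 34 measured genes, 33 lay above the background level on all 9 arrays. Of all 18193 genes, between 13456 and 14997 lay above it on a single array. The exception was Kif17, a kinesin-2 motor known from neurons and sensory cilia. Its log2 signals were 3.49, 3.67 and 3.72 in the columnar gate, 3.45, 4.32 and 3.99 in the lectin-only gate and 3.92, 3.72 and 3.72 in the GFP+ gate. Detection thus held in the 2 gates named basal as well as in the columnar gate. On GFP+ arrays 6 of 6 secretory and 6 to 7 of 8 multiciliated markers also lay above the background level. Which cells held the detected RNA was not tested. Averaged over the 34 genes, the level lay between 8.66 and 8.85 on columnar arrays, between 8.28 and 8.63 on lectin-only arrays and between 8.40 and 8.44 on GFP+ arrays. Neither lectin-binding gate overlapped the columnar gate in this mean, the lectin-only gate by a narrow margin, and the 2 overlapped each other. The median SD of a gene over the 3 arrays of a gate was 0.35 in the columnar, 0.29 in the lectin-only and 0.21 in the GFP+ gate.

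**Figure D1:**
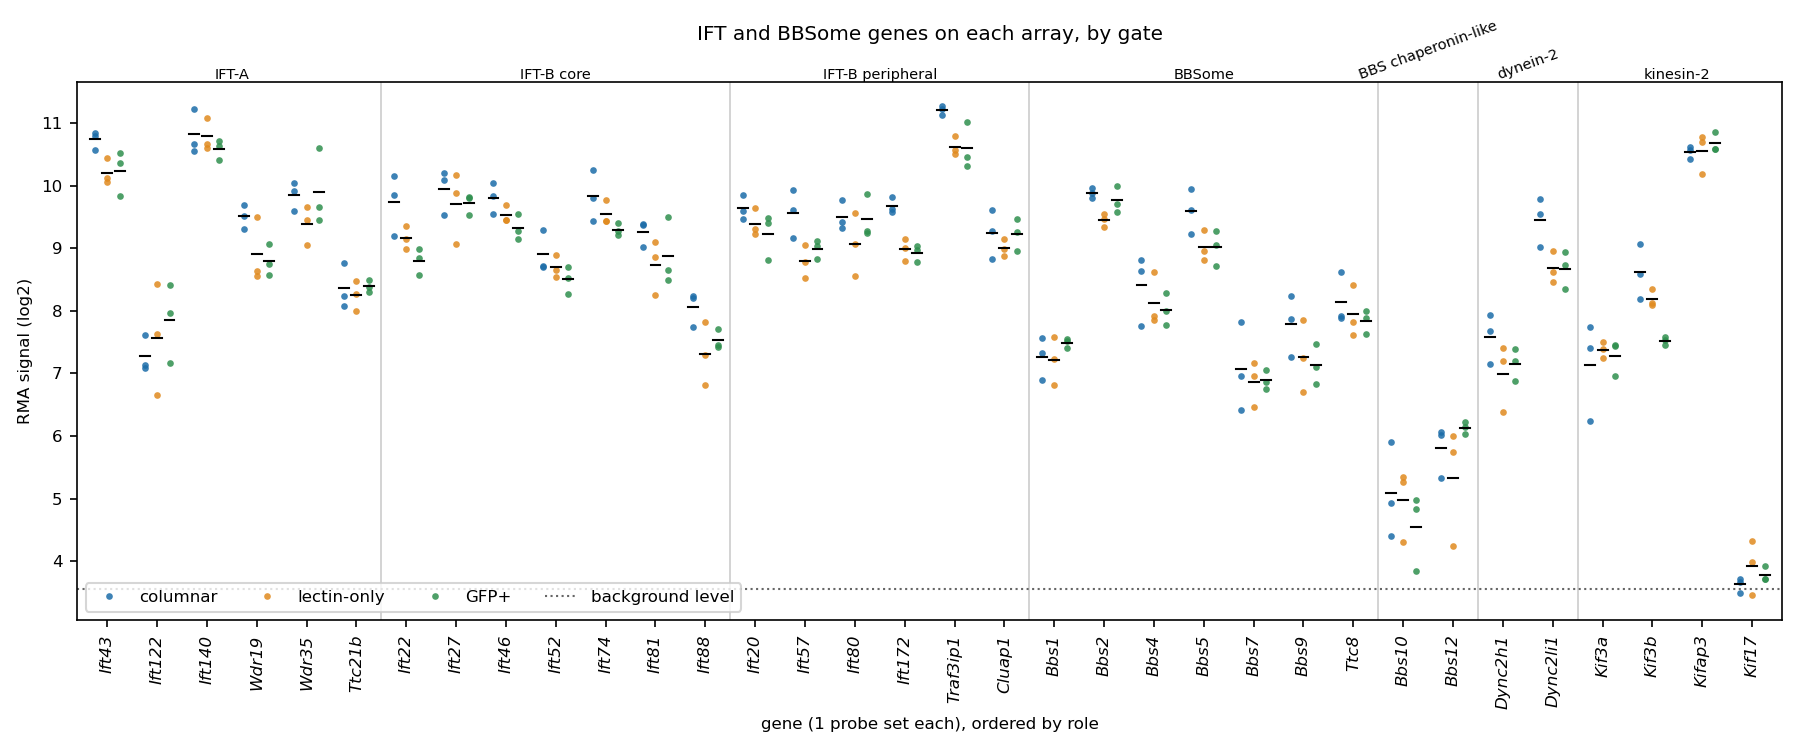
RMA signal on the log2 scale (y axis) of each measured intraflagellar transport and BBSome gene (x axis, grouped by role) on each array; points are arrays coloured by gate, short bars are means of 3 arrays and the dotted line is the background level of 3.56. In 26 of the 34 genes the columnar mean lies above both other means, but in only 5 do all columnar points lie above all others. Kif17 lies near the background level. Heights of different genes are not comparable, since each has its own probe set.

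In the GFP+ gate the transport genes lay modestly below the columnar gate. The median difference over the 34 genes was -0.40 on the log2 scale, or 76.0% of the columnar level, with 26 genes below 0 and 8 above. Over all 18193 genes the median was -0.04. A gene was called where limma's adjusted p (Benjamini-Hochberg, over all genes) was under 0.05 and the absolute log2 difference at least 1. By this rule 1 of the 34 genes was called, Kif3b, in the lower direction, and 11.2% of all genes were called in either direction. Without the rule on size 3 of the 34 genes passed and were lower, namely Kif3b, Ift22 and Ift172, against 6.83% of all genes. Unadjusted p was under 0.05 for 11 of the 34 genes, all lower, against 12.1% of all genes. In 10 of the 34, each GFP+ array lay below each columnar array, as it did for 17.8% of all genes. In bulk samples, fewer cells of a type and less RNA per cell cannot be told apart.

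In the lectin-only gate the transport genes also lay below the columnar gate. The median difference from the columnar gate was -0.35, or 78.2% of the columnar level, with 30 genes below 0 and 4 above, while all genes had a median of 0.07. By the same rule 0 of the 34 genes were called by limma, against 8.85% of all genes. Ift172 alone passed the adjusted p without the rule on size, against 3.05% of all genes in the lower direction. Unadjusted p was under 0.05 for 10 of the 34, all lower, against 6.93% of all genes. In 6 of the 34 the arrays did not overlap, lectin-only below columnar, as in 8.61% of all genes. Centring each array on its median moved the median of all genes from 0.07 to -0.17 and that of the 34 genes to -0.60. With that centring Dync2li1 (-1.01, adjusted p = 0.0175, limma) and Ift57 (-1.02, adjusted p = 0.0143) were called lower. Without replicate 3 of the lectin-only gate Ift88 was called (-1.01, adjusted p = 0.0308, limma).

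Both comparisons use the same 3 columnar arrays, so their values are set side by side and not counted as separate support. Between the GFP+ and lectin-only gates the median difference was -0.01, with 18 genes below 0 and 16 above. Limma called 0 of the 34 genes there, against 3.74% of all genes, and 1 of the 34 (Kif3b) had an unadjusted p under 0.05 and was lower, against 11.2% of all. The GFP+ arrays lay below all lectin-only arrays for Ift22, Ift74 and Kif3b, which is 3 of 34 against 13.3% of all genes. They lay above all of them for Bbs2 and Bbs12, 2 of 34 against 5.24% of all genes. The signs in this comparison depend on the scaling: with each array centred on its median 8 of the 34 genes lay below 0 and 26 above.

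**Figure D2:**
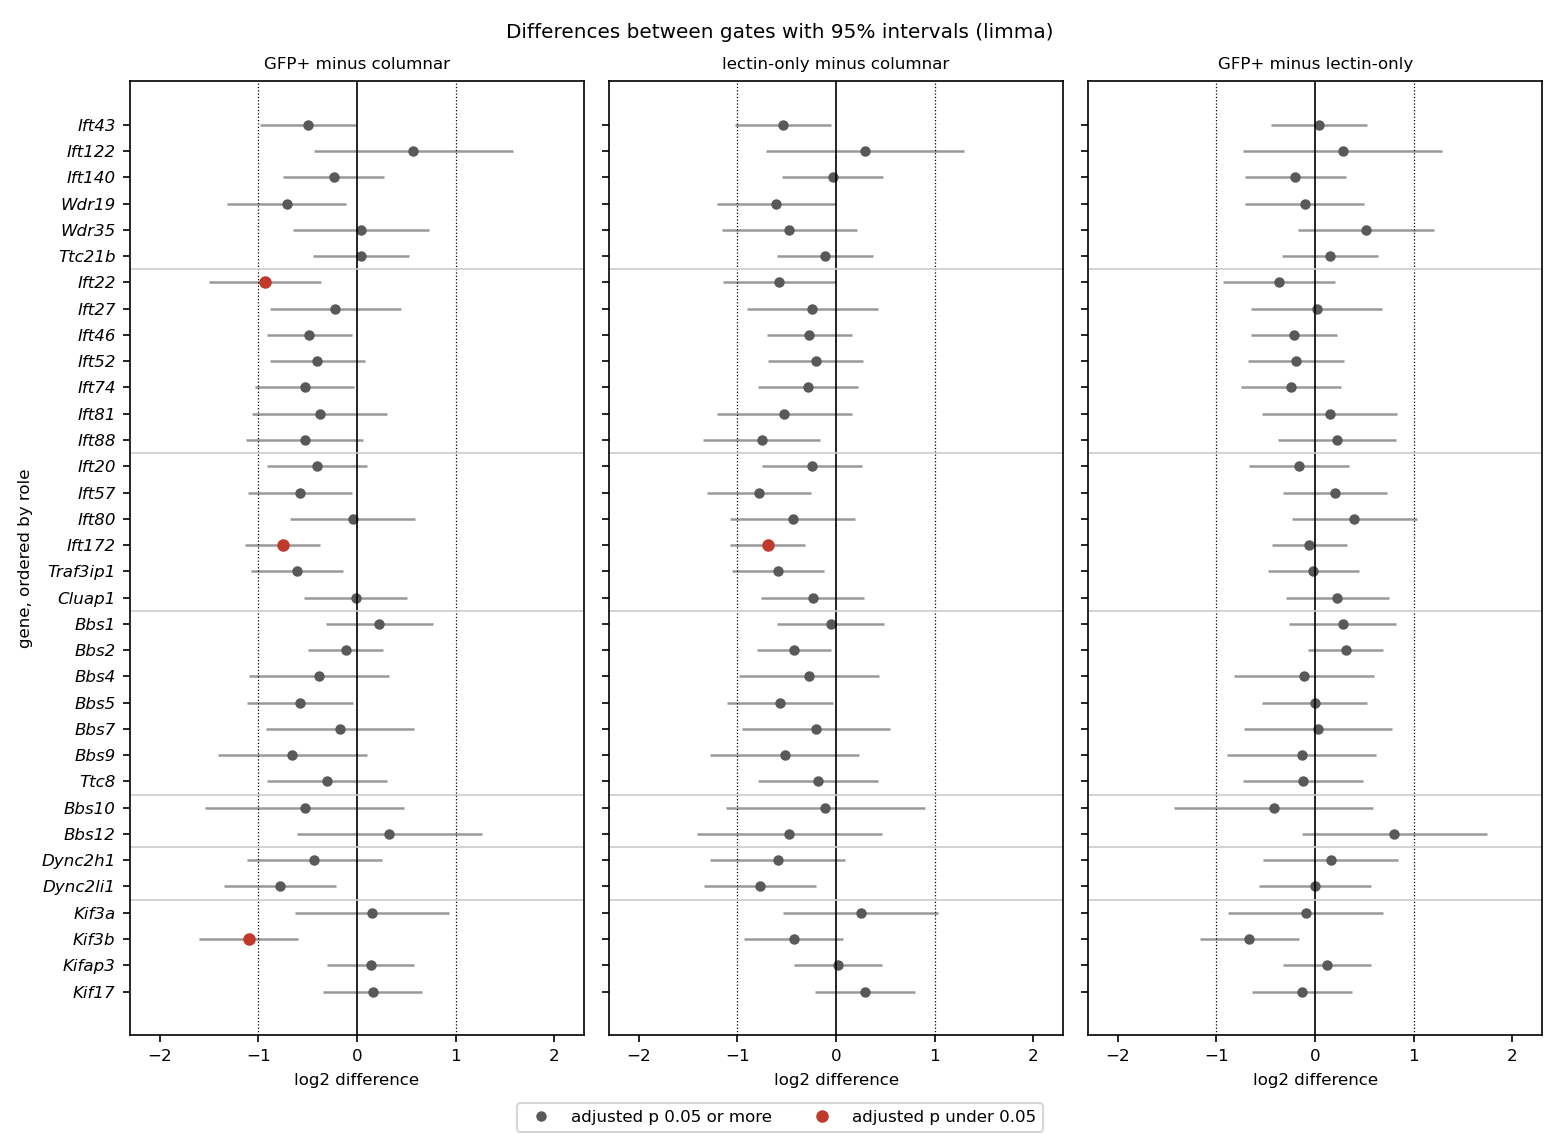
Log2 difference between gates (x axis) for each of the 34 measured genes (y axis, ordered by role) in the 3 comparisons; points are limma estimates, lines are 95% intervals, dotted lines mark a difference of 1 in either direction and red points have an adjusted p under 0.05. Red points are Ift22, Ift172 and Kif3b in the GFP+ gate against columnar and Ift172 in the lectin-only gate against columnar.

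Of the 4 anterograde kinesin-2 genes, Kif3b was the one called. It encodes a motor subunit that pairs with KIF3A and the adaptor KIFAP3 in the heterotrimeric motor. Its log2 signals were 9.07, 8.59 and 8.20 in the columnar gate, 8.10, 8.13 and 8.35 in the lectin-only gate and 7.54, 7.58 and 7.46 in the GFP+ gate. All 3 GFP+ arrays were below all 6 others, and the columnar and lectin-only arrays overlapped. The gate means were 8.62 ± 0.44, 8.19 ± 0.14 and 7.53 ± 0.06 (SD, n = 3 arrays). Kif3b was 2.14-fold lower in the GFP+ than in the columnar gate (log2 difference -1.10 ± 0.22 SE, 95% interval -1.60 to -0.59, limma adjusted p = 0.00923). Against the lectin-only gate the GFP+ difference was -0.67 ± 0.22 (adjusted p = 0.159, limma). The call rests in part on replicate 1 of the columnar gate: without it the difference was -0.87 (adjusted p = 0.0262, limma), short of the required size. Mean multiciliated marker levels were also lowest in the GFP+ gate, and their part in the Kif3b difference was not tested. Markers of other cells were also called lower in GFP+ than in columnar, where 11.2% of all genes were called in either direction. These were 3 of 4 fibroblast markers (median of the list -3.28), 3 of 6 secretory (-1.95), 2 of 3 brush cell (-2.40) and 2 of 2 neuroendocrine markers (-1.49). The 3 secretory markers not called, Scgb1a1, Scgb3a2 and Bpifa1, had means of 13.74, 14.07 and 14.10 in columnar and 13.64, 13.81 and 14.02 in GFP+. The secretory median thus lies between these 3 and the markers called. The mean of the fibroblast markers ran from 6.54 to 6.73 on columnar, from 5.80 to 6.99 on lectin-only and from 3.59 to 4.33 on GFP+ arrays. In lectin-only against columnar 3 of 6 secretory markers were called lower (median -0.95), against 8.85% of all genes in either direction. Scgb1a1, Scgb3a2 and Bpifa1 were again not called, with lectin-only means of 13.69, 13.91 and 14.04. The part of these cells in the transport values was not tested.

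Kif3b has 4 probe sets, and all lay lower in the GFP+ gate. In a fit over all 34945 probe sets with 1 symbol, added after the data were seen, GFP+ minus columnar was -1.10, -1.07, -0.89 and -0.99 for them. Limma's adjusted p, now over probe sets, was 0.0128, 0.00776, 0.119 and 0.0335. In all 4 the GFP+ arrays lay below the columnar arrays without overlap, and 2 of the 4 were called. No other probe set of the 34 genes was called.

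**Figure D3:**
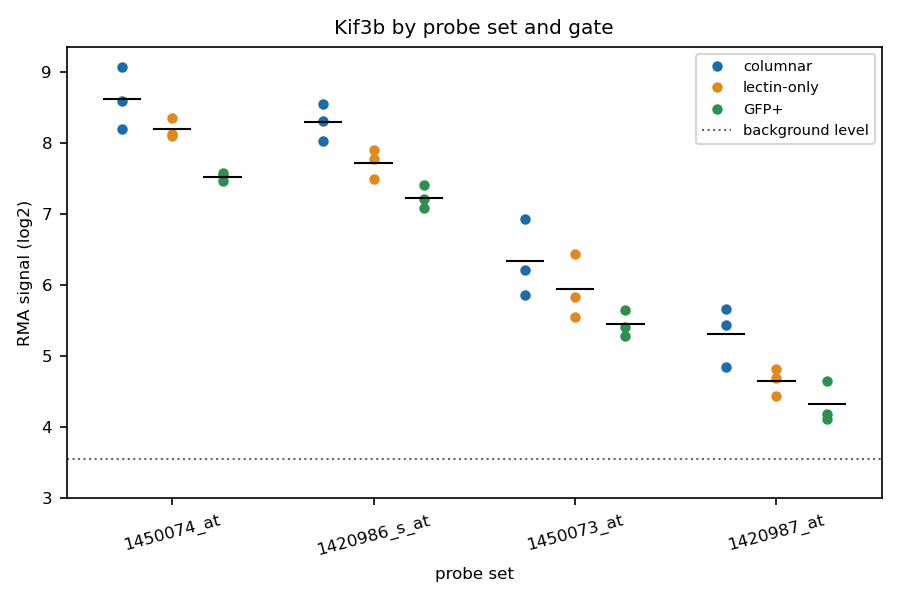
RMA signal on the log2 scale (y axis) of the 4 Kif3b probe sets (x axis) on each array; points are arrays coloured by gate, short bars are means of 3 arrays and the dotted line is the background level. Within each probe set the 3 GFP+ points lie below the 3 columnar points, and the lectin-only mean lies between.

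The other subunits of the same motor were not called. Kif3a, its other motor subunit, had signals of 7.75, 6.24 and 7.41 in the columnar, 7.25, 7.40 and 7.50 in the lectin-only and 7.45, 7.45 and 6.96 in the GFP+ gate. Its columnar arrays were the most scattered, and GFP+ minus columnar was 0.15 with a 95% interval of -0.63 to 0.93. Kifap3, the adaptor, had signals of 10.43, 10.62 and 10.57, of 10.70, 10.78 and 10.19, and of 10.59, 10.59 and 10.86 in the same order of gates. All 3 gates overlapped, and GFP+ minus columnar was 0.14 (95% interval -0.31 to 0.58). Its other probe set gave -0.44 (adjusted p = 0.347 over probe sets, limma) with all GFP+ arrays below the columnar ones, so the sign depended on the probe set. Whether Kif3b differed from Kif3a or Kifap3 in its change was not tested.

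The retrograde dynein-2 genes lay lower in both lectin-binding gates without being called. Dync2li1 encodes the light intermediate chain of this motor. Its signals were 9.55, 9.80 and 9.02 in the columnar, 8.62, 8.46 and 8.96 in the lectin-only and 8.74, 8.94 and 8.35 in the GFP+ gate. Every columnar array was above every other array. The differences were -0.78 ± 0.25 (adjusted p = 0.0766, limma) for GFP+ and -0.77 ± 0.25 (adjusted p = 0.0935) for lectin-only against columnar. Dync2h1, the motor's heavy chain, had differences of -0.43 and -0.59 with adjusted p of 0.452 and 0.311 (limma), and its gates overlapped.

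The genes of the IFT-B complex, which carries tubulin and other cargo outwards, mostly lay on the lower side. All 7 core genes and all 6 peripheral genes lay below 0 in both comparisons with the columnar gate, and did so also with centred and with quantile-normalized arrays. Some of these values were near 0: GFP+ minus columnar for Ift80 was 0.19 with probe sets averaged. Its other probe set gave 0.42 (adjusted p = 0.467 over probe sets, limma) with all GFP+ arrays above the columnar ones. The sign for Ift80 thus depended on the probe set. With single arrays left out both Ift80 and Cluap1, the latter up to 0.18, passed above 0. Ift27 lay at 0.08 in lectin-only against columnar without replicate 2 of the lectin-only gate. The core median was -0.49 in the GFP+ and -0.28 in the lectin-only gate, and the peripheral median -0.49 and -0.52.

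In the core, Ift22, a Rab-like GTPase, had the largest GFP+ difference. Its signals were 9.86, 9.21 and 10.15 in the columnar, 8.99, 9.15 and 9.36 in the lectin-only and 8.99, 8.85 and 8.57 in the GFP+ gate. The GFP+ arrays lay below all columnar arrays, while a lectin-only array exceeded the lowest columnar one. Its GFP+ level was 52.3% of the columnar level (log2 difference -0.94 ± 0.25, 95% interval -1.50 to -0.37, limma adjusted p = 0.0359), and the lectin-only difference was -0.57 ± 0.25 (adjusted p = 0.224). The adjusted p for GFP+ ranged from 0.00906 to 0.131 over the 17 alternatives and was under 0.05 in 10. It passed the size rule with arrays centred on their median (-1.02, adjusted p = 0.0254, limma) and without replicate 2 of the columnar gate (-1.20, adjusted p = 0.00906).

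Ift88, the polaris protein required for cilium assembly, had signals of 7.74, 8.21 and 8.24, of 7.29, 6.81 and 7.82, and of 7.42, 7.45 and 7.72 in the columnar, lectin-only and GFP+ gates. The GFP+ arrays lay below the columnar ones by a narrow margin and the lectin-only arrays overlapped both. Its differences from columnar were -0.53 ± 0.27 for GFP+ (adjusted p = 0.259, limma) and -0.75 ± 0.27 for lectin-only (adjusted p = 0.12). Ift74 and Ift81 form the module that binds tubulin cargo. Ift74 lay at -0.53 in the GFP+ gate with arrays that did not overlap (adjusted p = 0.175, limma) and Ift81 at -0.38 with arrays that did (adjusted p = 0.525). The remaining core genes, the particle subunits Ift46 and Ift52 and the GTPase-like Ift27, lay at -0.49, -0.40 and -0.22 in GFP+ against columnar and at -0.27, -0.21 and -0.24 in lectin-only against columnar. Another probe set of Ift27 gave -0.58 and -0.68 (adjusted p = 0.118 and 0.0822 over probe sets, limma), with no overlap of arrays in either.

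Ift172, the large peripheral subunit that takes part in the turnaround of trains at the tip, was the one gene to pass the adjusted p in both comparisons with the columnar gate. Its signals were 9.59, 9.63 and 9.83 in the columnar, 9.0, 8.80 and 9.15 in the lectin-only and 9.03, 8.97 and 8.78 in the GFP+ gate. The columnar arrays were above all 6 others, which overlapped among themselves. The differences were -0.75 ± 0.17 (95% interval -1.13 to -0.37, limma adjusted p = 0.0153) for GFP+ and -0.69 ± 0.17 (-1.07 to -0.31, adjusted p = 0.0283) for lectin-only, or 59.4% and 61.8% of the columnar level. Over 17 alternatives the adjusted p ranged from 0.00542 to 0.0664 for GFP+, under 0.05 in 15, and from 0.00599 to 0.107 for lectin-only, under 0.05 in 10.

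Ift57, another peripheral subunit and the holder of an X-box above, had signals of 9.16, 9.94 and 9.62 in the columnar, 8.78, 8.53 and 9.06 in the lectin-only and 9.03, 9.13 and 8.82 in the GFP+ gate. Columnar arrays were again above all others, the lowest of them by little. Its differences were -0.58 ± 0.23 for GFP+ and -0.78 ± 0.23 for lectin-only (adjusted p = 0.153 and 0.067, limma). Traf3ip1, a subunit that binds microtubules, had signals of 11.27, 11.13 and 11.24, of 10.50, 10.57 and 10.79, and of 11.02, 10.32 and 10.47 in the same order of gates. Its columnar arrays were tightly grouped and above all others, with differences of -0.61 ± 0.21 and -0.59 ± 0.21 (adjusted p = 0.0904 and 0.118, limma). Ift20, which also acts at the Golgi, Ift80 and Cluap1 lay at -0.40, -0.04 and -0.01 in GFP+ against columnar and at -0.24, -0.44 and -0.24 in lectin-only against columnar, with overlapping arrays in each.

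The 6 IFT-A genes were mixed. Their median was -0.10 in GFP+ and -0.29 in lectin-only against columnar, and 3 of the 6 lay below 0 in the former, or 5 with arrays centred on their median. Ift43 had signals of 10.85, 10.58 and 10.80 in the columnar, 10.06, 10.45 and 10.12 in the lectin-only and 10.53, 10.36 and 9.84 in the GFP+ gate. Columnar arrays exceeded all others, and the differences were -0.50 ± 0.22 and -0.54 ± 0.22 (adjusted p = 0.187 and 0.178, limma). Wdr19, a core subunit of the complex, had signals of 9.32, 9.52 and 9.70, of 8.64, 8.57 and 9.51, and of 8.58, 8.75 and 9.08. Replicate 3 of the lectin-only gate lay among the columnar arrays, and the GFP+ difference was -0.71 ± 0.27 (adjusted p = 0.127, limma).

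Ift140, Ttc21b and Wdr35, also IFT-A subunits, lay at -0.24, 0.04 and 0.04 in GFP+ against columnar and at -0.03, -0.11 and -0.47 in lectin-only against columnar. The last 2 of the GFP+ values turned below 0 with arrays centred on their median. Ift122 was the member with the largest positive GFP+ difference, 0.57 with a 95% interval of -0.44 to 1.58. Its signals spread widely within gates, from 6.65 to 8.44 among lectin-only arrays. Its other probe set gave -0.08 in that comparison. In lectin-only against columnar the chosen probe set gave 0.29. The other gave -0.52 (adjusted p = 0.155 over probe sets, limma) with all lectin-only arrays below the columnar ones. The sign against columnar thus depended on the probe set for both gates.

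The 7 measured BBSome subunits had medians of -0.31 in GFP+ and -0.27 in lectin-only against columnar. Of them, 6 lay below 0 in the first comparison and 7 in the second, and 0 were called. Bbs5 had signals of 9.94, 9.23 and 9.61 in the columnar, 8.82, 9.30 and 8.95 in the lectin-only and 9.27, 9.06 and 8.72 in the GFP+ gate. Both lectin-binding gates reached into the columnar range, with differences of -0.58 ± 0.24 and -0.57 ± 0.24 (adjusted p = 0.166 and 0.195, limma). Bbs2 had signals of 9.81, 9.96 and 9.89, of 9.35, 9.56 and 9.48, and of 10.00, 9.72 and 9.59. Its lectin-only arrays lay below both other gates, by -0.43 ± 0.17 from columnar (adjusted p = 0.17, limma), while GFP+ and columnar overlapped (-0.12, 95% interval -0.50 to 0.26).

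Bbs9 lay at -0.66 and -0.52, Bbs4 at -0.39 and -0.27, Ttc8 at -0.31 and -0.19 and Bbs1 at 0.23 and -0.06 in GFP+ and lectin-only against columnar, all with overlapping arrays. Bbs7, which holds the other X-box, lay at -0.18 and -0.20 (95% intervals -0.93 to 0.58 and -0.95 to 0.55), with columnar signals of 7.82, 6.42 and 6.97. The chaperonin-like proteins of Bbs10 and Bbs12 help to assemble the BBSome. Bbs10 lay at -0.53 and -0.11 and Bbs12 at 0.33 and -0.47, with 95% intervals that reached -1.54 for Bbs10 in the GFP+ gate and -1.41 for Bbs12 in the lectin-only gate. Bbs12 signals of 5.75, 4.23 and 6.01 in the lectin-only gate were all below those of 6.22, 6.14 and 6.03 in the GFP+ gate, by 0.80 with an adjusted p of 0.432 (limma).

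The size that these data could have missed is given by the intervals. In 19 of the 34 genes the 95% interval for GFP+ against columnar lay wholly above -1, and in 18 for lectin-only against columnar. Over all 18193 genes it did so in 14584 and 15710, a larger share in both comparisons. The lowest bound of any member was -1.60 in the first comparison and -1.41 in the second.

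Genes of the motile axoneme, the dynein arms, radial spokes and central apparatus that move the cilium, had larger differences. Dnah5, Dnah9, Tekt1, Ak7, Rsph1 and Ccdc113 are also on the multiciliated marker list. The lower values of that list and of this one are thus not separate observations. Of 27 measured, 20 were called lower and 0 higher in GFP+ against columnar, against 11.2% of all genes in either direction. In that comparison 24 lay below 0 and 3 above, up to 1.26 for Dnah11 (mean 7.80 in columnar and 9.07 in GFP+). The median was -2.93, or 13.1% of the columnar level. With all probe sets of a gene averaged it was -1.75, or 29.7%, with 22 called lower and 1 higher. In lectin-only against columnar 17 were called lower and 0 higher, against 8.85% of all genes, with a median of -1.68, or 31.2%. Among the called axoneme genes were Lrrc6 (-4.54 ± 0.85), a dynein arm assembly factor, Ak7 (-4.36 ± 0.44), an adenylate kinase of the axoneme, Rsph4a (-4.29 ± 0.73), a radial spoke head protein, and Armc4 (-3.86 ± 0.51), a dynein docking factor. Their adjusted p values were 0.00568, 0.00018, 0.00341 and 0.00084 (limma). Lrrc6, Rsph4a and Armc4 lay under the background level on 2 of 3 GFP+ arrays, so no order is read among the genes. With signals under that level set to it, a step added after the data were seen, the differences were -3.89, -3.84 and -3.38, that of Ak7 stayed at -4.36 and the median of the list was -2.34. Lrrc6 was 11.3-fold lower without replicate 3 of the columnar gate and 40.2-fold lower without replicate 1, Rsph4a was 12.5-fold lower without replicate 1 of the GFP+ gate and 29.8-fold lower without replicate 3, and all 4 genes were called under each of the 17 alternatives. In all 34 transport genes the 95% interval for GFP+ against columnar lay above each of these list medians, as a description with no test between the lists.

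**Figure D4:**
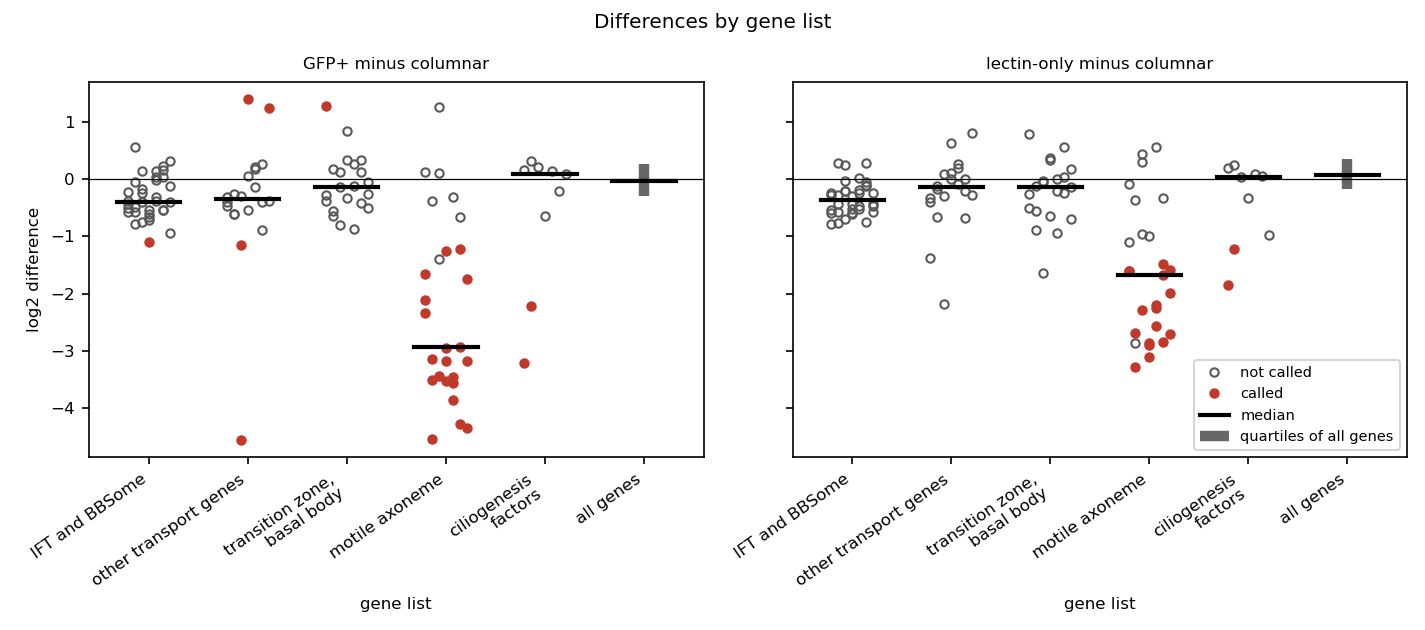
Log2 difference from the columnar gate (y axis) for genes of each list (x axis) in the GFP+ gate (left) and the lectin-only gate (right); points are genes, filled where called, thick bars are medians and the grey bar spans the quartiles of all genes. The transport genes cluster near medians of -0.40 and -0.35, and the motile axoneme genes spread down to -4.54 in the GFP+ gate.

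Of the other transport genes outside the list, 20 of 22 were measured, and 2 were called lower and 2 higher in GFP+ against columnar (median -0.35), against 11.2% of all genes in either direction. Dynlrb2, a dynein light chain that is also on the multiciliated marker list, had signals of 10.58, 10.97 and 11.39 in the columnar, 8.61, 7.77 and 10.03 in the lectin-only and 4.83, 6.50 and 7.93 in the GFP+ gate. The GFP+ arrays were spread widely but lay below all columnar ones. Dynlrb2 was 23.6-fold lower in GFP+ than in columnar (-4.56 ± 0.75, adjusted p = 0.00284, limma), 13.6-fold without replicate 1 of the GFP+ gate and 39.9-fold without replicate 3. Ttc30b, an IFT-B subunit, fell by 1.14 ± 0.24 (adjusted p = 0.0107), with signals of 8.46, 8.94 and 8.59 in the columnar gate against 7.49, 7.35 and 7.72 in the GFP+ gate. Tulp3, the tubby-like adaptor that delivers membrane receptors with IFT-A, rose by 1.41 ± 0.24 (adjusted p = 0.0035), and Kif3c, another kinesin-2 motor subunit, by 1.24 ± 0.25 (adjusted p = 0.00878). With all probe sets averaged Tulp3 lay at 0.89 (adjusted p = 0.03, limma), short of the required size. Kif3c signals were 4.76, 4.29 and 4.49 in the columnar, 5.20, 5.03 and 5.74 in the lectin-only and 5.42, 6.08 and 5.76 in the GFP+ gate. Kif3c thus differed in the opposite direction to Kif3b, with both lectin-binding gates above the columnar gate. In lectin-only against columnar limma called 0 of the 20, and 4 had an unadjusted p under 0.05 (2 lower and 2 higher), against 21.8% of all genes in either direction. Dynlrb2 (-2.18) was called there with the replicate block, with these 2 gates fitted alone and without replicate 1 of the GFP+ gate (adjusted p = 0.0231, 0.0479 and 0.0485, limma).

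Of 24 transition zone and basal body genes, which gate entry into the cilium, 21 were measured, and 0 were called lower and 1 higher in GFP+ against columnar (median -0.13), against 11.2% of all genes in either direction. The one was Tmem237, a membrane protein of the transition zone, at 1.27 ± 0.24 (adjusted p = 0.00549, limma). In lectin-only against columnar limma called 0 of the 21, and 7 had an unadjusted p under 0.05 (6 lower and 1 higher), against 21.8% of all genes. In that comparison 2 of the 21 were called lower with arrays centred (B9d1 at -1.18 and Nphp4 at -1.13) and without replicate 1 of the lectin-only gate (B9d1 at -1.02 and Tctn3 at -2.17). B9d1 was also called with quantile normalization and without replicate 2 of the lectin-only gate, and without replicate 1 of the GFP+ gate it was called in GFP+ against columnar (-1.06). Of 11 ciliogenesis transcription factors 9 were measured. Foxj1, the regulator of motile ciliogenesis, was lower by -3.21 ± 0.24 in GFP+ and -1.86 ± 0.24 in lectin-only against columnar (adjusted p = 4.1e-05 and 0.00116, limma). Foxj1 is also on the multiciliated marker list. Foxn4, a forkhead factor of the multiciliated programme, was lower by -2.23 ± 0.29 and -1.21 ± 0.29 (adjusted p = 0.00069 and 0.0244). The second call of Foxn4 was lost with these 2 gates fitted alone and without any 1 of the columnar arrays or of replicates 1 and 2 of the lectin-only gate (adjusted p from 0.0609 to 0.088, limma). The other 7 were not called in either comparison. Rfx3, which binds the X-box, lay at -0.64 and -0.32 (adjusted p = 0.274 and 0.667, limma).

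**Figure D5:**
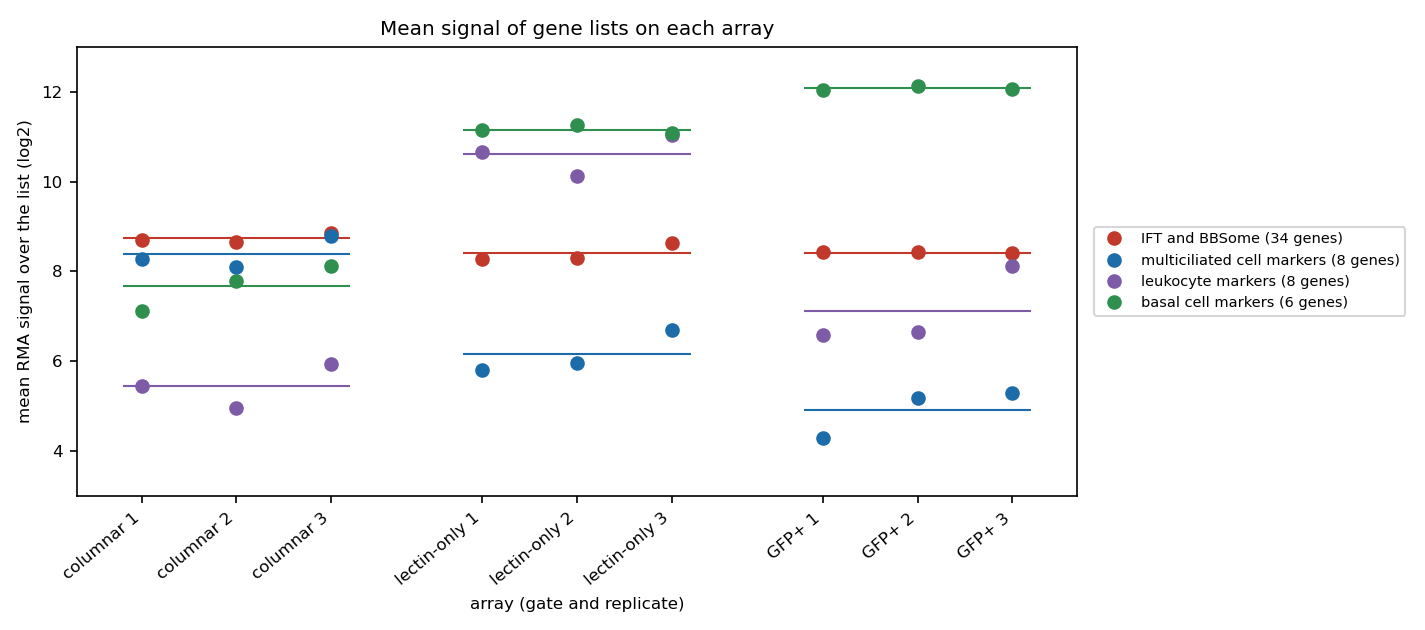
Mean RMA signal on the log2 scale (y axis) over the 34 transport genes and over 3 marker lists on each of the 9 arrays (x axis); points are arrays and lines are gate means. The transport mean stays between 8.28 and 8.85 on all arrays, while the multiciliated mean runs from 8.79 on a columnar array down to 4.29 on a GFP+ array; on replicate 3 of the lectin-only gate the leukocyte point lies under the basal one.

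Replicate 3 of the lectin-only gate had the highest transport mean of its gate, 8.63 against 8.28 and 8.30, and also the highest multiciliated mean, 6.70 against 5.80 and 5.96. It was also the array with the raised median, and the part of either in the transport values was not tested.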

How the data were processed

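The authors deposited log2 signals per probe set for 9 Affymetrix mouse arrays, made with RMA, per the submitters' processing notes. The RMA version is not given in the sources used here. Medians of the deposited arrays ran from 4.91 to 5.44, and the steps behind the values are not fully known here. Of 45101 probe sets, 34945 had 1 gene symbol in the platform annotation, and 34741 of those symbols were updated through a RefSeq gene table. Each of 18193 genes took its probe set with the highest mean. The background level is the 95th percentile of 80 olfactory and vomeronasal receptor probe sets.

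Gate means were fitted to all 9 arrays by lmFit and eBayes of limma 3.58.1 (R 4.3.3; 6 residual and 3.46 prior degrees of freedom; tested on simulated data). The test compares biological replicates, per the labels; the number of arrays limits precision (median SE 0.24). Alternatives covered scaling, probe set choice, a dim-gene filter, the variance model, a replicate block, the 2 gates alone, the call rule and leaving out each array.

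All members were named, and of other lists the called genes with the largest GFP+ differences, up to 4; Foxj1, Krt5 and Trp63 always, and other genes after their values were seen. The fit over every probe set and the longer promoter window were added after seeing the data. Promoters were to be shown for called members with an X-box; none qualified. Members and lists were chosen with earlier results of these data known.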

Additional observations from a re-analysis of the deposited data

How the results depend on the processing

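No called difference among the 34 genes turned its sign under any alternative run. The count of these genes called lower in GFP+ against columnar was 1; it was 2 with arrays centred on their median (Ift22 added), 3 on the adjusted p alone and between 0 and 2 when single arrays were left out. In lectin-only against columnar it was 0; it was 2 with centring, 1 on the adjusted p alone and between 0 and 1 with single arrays left out. The median difference in lectin-only against columnar, -0.35, moved to -0.60 with centring and ran from -0.48 to -0.29 with single arrays left out; that in GFP+ against columnar, -0.40, ran from -0.43 to -0.28. Between the GFP+ and lectin-only gates the median of -0.01 became 0.15 with centring and 0.085 with quantile normalization, and ran from -0.066 to 0.092 with single arrays left out. The cause of these shifts was not tested. With the replicate block the median differences were -0.40, -0.35 and -0.01 and the counts 1, 0 and 0. The block thus changed no call among the 34 genes. In lectin-only against columnar it added Dynlrb2 and further axoneme genes (19 in place of 17). In GFP+ against lectin-only 4 axoneme genes in place of 1 were called lower, with Ak7 added. Dynlrb2 was added there as lower and Trp73, a listed ciliogenesis factor, as higher. In GFP+ against columnar 1 axoneme gene in place of 0 was called higher. That count was also 1 with quantile normalization, averaged probe sets, the dim-gene filter and the other variance model. The same count held without replicate 3 of the columnar gate or replicate 2 of the lectin-only gate. Whether the replicate numbers pair the samples is not settled here. Correlations of deviations between gates ran from -0.07 to 0.33 for same-numbered arrays and from -0.47 to 0.17 for the others. Signal near background limits Kif17, and the number of arrays limits all values.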

Other observations

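Replicate 3 of the lectin-only gate stood far below its gate for 2 ciliary genes outside the list, singled out after their values were seen. Hspb11, an IFT-B subunit also known as a small heat shock protein, had log2 signals of 9.51, 9.42 and 5.63 in the lectin-only gate, against 9.03, 9.77 and 9.89 in the columnar and 9.07, 9.42 and 9.26 in the GFP+ gate. Tctn3, a transition zone protein, had signals of 7.39, 6.74 and 4.87 in the lectin-only gate, against 7.94, 8.30 and 7.68 in the columnar and 7.20, 7.08 and 7.23 in the GFP+ gate. On the same array the median over all probe sets was higher than on the others.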
